A study of Mus musculus with 6 samples.

Results

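The miR-15/16 seed family, to which miR-195 and miR-322 belong, is a set of mouse microRNAs (miRNAs) that share the bases by which they recognise their targets. Its members were taken by name from the array's gene list: mmu-miR-15a, mmu-miR-15b, mmu-miR-16, mmu-miR-195, mmu-miR-322 and mmu-miR-497, written without the species prefix from here on. All 6 were on the array, among 611 mouse miRNAs. RNA came from macrophages grown from the bone marrow of C57BL/6 females, with 3 RBP-J knockout (KO) samples and 3 control samples, each on its own 1-colour array. KO macrophages came from MxCre mice with RBP-J floxed on both alleles (RBP-J f/f) and controls from MxCre mice with RBP-J floxed on 1 allele (RBP-J f/+), which the sample titles call WT. Mice of both genotypes carried MxCre and had received poly(I)-poly(C), and all macrophages had been given lipopolysaccharide (LPS), a bacterial product that activates macrophages, for 24 h. RBP-J binds DNA and carries the signal of Notch receptors to their target genes, and the comparison asks which miRNAs depend on it. No group had RBP-J free of floxed alleles, so the contrast is of both alleles floxed against 1. The Mx promoter is switched on by interferon and works in many cell types, so the deletion was not limited to macrophages, and the array does not measure Rbpj mRNA. The labels give neither the age of the mice nor whether replicates came from separate animals, so p-values measure only the spread between these samples.

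miRNAs are short RNAs that guide Argonaute proteins to messenger RNAs, mostly by pairing of the seed, bases 2 to 8 from the 5′ end. The miR-15/16 family is best known for holding back the cell cycle and cell survival, through targets such as cyclins D1 and E1 and BCL2. In humans, miR-15a and miR-16-1 lie in a region often deleted in chronic lymphocytic leukaemia.

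The mature sequences show why these miRNAs are taken as a single pool, and where they differ. They are given 5′ to 3′ from RefSeq (build GRCm38.p6), which held all 6 members, with the seed in capitals.
miR-15a: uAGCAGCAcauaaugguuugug
miR-15b: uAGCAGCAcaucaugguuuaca
miR-16: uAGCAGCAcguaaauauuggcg
miR-195: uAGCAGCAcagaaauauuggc
miR-322: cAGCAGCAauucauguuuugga
miR-497: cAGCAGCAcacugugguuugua

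All 6 share 1 seed, and the members differ in the bases after it. They also differ at position 1, which is c in miR-322 and miR-497 and u in the others. miR-16 and miR-195 are the closest: they match at 19 of the 21 positions compared and differ by G10A and U11G (miR-16 base first, positions counted from the 5′ end). Among the other pairs, miR-15a and miR-15b match at 18 of 22 positions and miR-15a and miR-497 at 17 of 22. The lowest share of matching positions was that of miR-16 and miR-497, at 11 of 22, followed by miR-195 and miR-322, at 11 of 21. Since the seed is common to all, members can be told apart on the array only by the rest of the sequence. How far the probes separate miR-16 from miR-195 was not tested. RefSeq lists 4 further mature mouse miRNAs with this seed, and 0 of them were on the array by name.

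In the genome the members lie in small clusters. miR-15a (chr14:61632075-61632096, minus strand) lies 117 bases from a copy of miR-16 within the Dleu2 gene. miR-15b (chr3:69009775-69009796, plus strand) lies 121 bases from the other copy of miR-16 within Smc4, which encodes a condensin subunit. Both copies of miR-16 give the same mature sequence, so its signal cannot be assigned to either locus. miR-195 (chr11:70235062-70235082, plus strand) and miR-497 lie 310 bases apart. miR-322 (chrX:53054306-53054327, minus strand) lies 256 bases from miR-503. These intervals are RefSeq's for GRCm38.p6, and the array files name no build.

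Across all 6 arrays, 110 of the 611 mouse miRNAs were well above background on every array and 452 on none. All 6 miRNAs listed as macrophage or myeloid (miR-223, miR-142-3p, miR-142-5p, miR-155, miR-146a and miR-21) were detected on every array, which does not by itself identify the cells. Of 19 markers of lymphoid, erythroid, endothelial, stromal, epithelial, muscle, liver and neural cells, 0 were detected on any array, with summed signals of 11.9 to 18.4 units on KO and 12.3 to 29.2 units on control arrays. KO arrays were dimmer as a whole, and the signal summed over all miRNAs came to 53252 ± 6648 (SD, n = 3) units on KO and 69175 ± 7533 (SD, n = 3) units on control arrays, in the scanner's intensity units. KO replicate 2 and control replicate 1 stood apart from the other arrays, along the first and the second principal component of the tested miRNAs; without both, the family's share differed by -0.24 percentage points and miR-322 by -0.33 on the log2 scale.

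The family was detected in macrophages of both genotypes, and 5 of its 6 members were well above background on all 6 arrays. Nearly all of its signal came from miR-16, miR-15a and miR-15b. Together they made up 97.1% to 98.2% of the family signal on any array. miR-322 and miR-195 were dim but detected. miR-497, the cluster partner of miR-195, was not well above background on any array. Its total signal was 1.62, -0.53 and 0.0761 intensity units on KO replicates 1, 2 and 3, against 1.05, 0.774 and 0.621 on control replicates 1, 2 and 3. Each of these values was smaller than the scanner software's own error for it, and no difference in miR-497 was detectable. By their probes miR-195 and miR-497, although neighbours in the genome, thus differed in detection. The miR-195 signal was 0.0172 to 0.0241 of that of miR-16, and whether miR-16 adds to it was not tested.

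The family's share of all miRNA signal was close in the genotypes. Summed over the members, the signal was 1720, 1532 and 1844 intensity units on the KO arrays, against 2154, 2081 and 2690 units on the control arrays. Every KO array lay below every control array, as it did for the sum over all miRNAs. The ratio of KO to control means was 0.736 for the family and 0.770 for all miRNAs. As a share of all mouse miRNA signal the family made up 2.94%, 3.35% and 3.32% on KO replicates 1, 2 and 3. On control replicates 1, 2 and 3 it made up 3.24%, 3.28% and 3.46%. The means were 3.20% ± 0.225 (SD, n = 3) in KO and 3.33% ± 0.117 (SD, n = 3) in control macrophages, a difference of -0.13 percentage points, and the groups overlapped. KO replicate 1 alone lay below every control array, and without it the difference was 0.0039 percentage points. Taken by slide column, it was -0.12 points in column 1 (2 KO and 2 control arrays) and -0.14 points in column 2 (1 of each). These are shares of fluorescence, since probes differ in brightness per molecule, and they are compared only between arrays. In bulk RNA, fewer cells of a type and less RNA per cell cannot be told apart. When miR-21, miR-1224 and miR-24, the brightest other miRNAs, were left out of the total, the family made up 7.04% of the rest in KO and 7.08% in control macrophages.

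**Figure D1:**
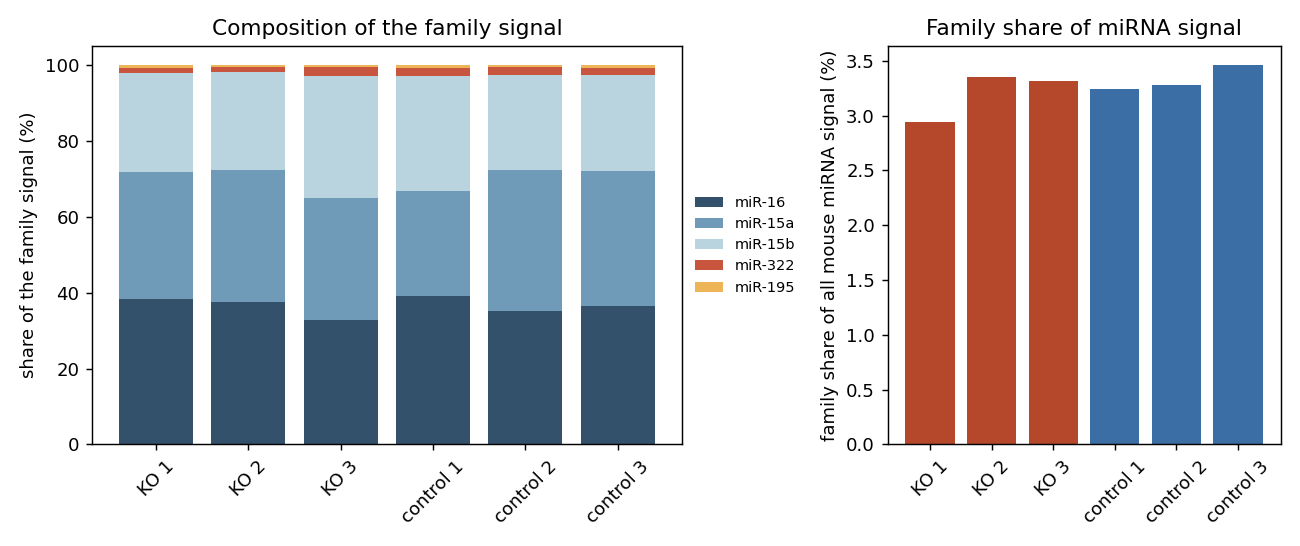
Left, each member's share of the family signal (%, stacked bars) on each array, with miR-497 left out because it reached no more than 0.0943%. Right, the family's share of all mouse miRNA signal (%) on each array, KO arrays in red and control arrays in blue; the KO arrays run from 2.94% to 3.35% and the control arrays from 3.24% to 3.46%.

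Within the family, miR-16 held 38.3%, 37.5% and 32.8% of the signal on the KO arrays, against 39.1%, 35.1% and 36.5% on the control arrays. miR-15a held 33.6%, 34.8% and 32.3% on the KO arrays, against 27.7%, 37.3% and 35.5% on the control arrays. miR-15b held 26.0%, 25.9% and 32.1% on the KO arrays, against 30.4%, 24.8% and 25.3% on the control arrays. For all of them the genotypes overlapped, and the most unusual mixtures were those of KO replicate 3 and control replicate 1. miR-322 held 1.39%, 1.23% and 2.38% on the KO arrays, against 2.06%, 2.21% and 2.05% on the control arrays, so that KO replicates 1 and 2 lay below and KO replicate 3 above every control array. miR-195 held at most 0.694% on any array.

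For the comparison of genotypes each array was scaled to its own 75th percentile over the probes detected on all arrays, and values are log2 relative to that percentile. No member passed the test between KO and control macrophages. By limma across the 135 miRNAs detected on at least 3 arrays, 0 of 5 tested members had an adjusted p under 0.05, where 0 of 135 miRNAs (0%) did. At an unadjusted p under 0.05 there were 0 of 5 members, against 6 of 135 miRNAs (4.44%). The genotypes overlapped for each of the 5 members, while 10.4% of all tested miRNAs had groups that did not overlap, 2.96% with KO below and 7.41% with KO above. Of the members, 3 had a fitted value below 0 (lower in KO) and 2 above, against 28.1% and 71.9% of all tested miRNAs. The family's median difference was -0.02 and that of all tested miRNAs 0.11, so the median member stood 0.13 below the median miRNA (-0.13 relative to it). The whole table's median moved with the processing: it was -0.31 with no scaling, -0.04 when scaled on all probes and 0.01 with quantile scaling, and 0.24 when the background correction was changed to normexp. The family's median lay below it under all 20 alternatives (-0.25 to -0.02 relative to it). The value of -0.02 came without the filter. There the median was taken over 611 miRNAs, 452 of them detected on no array, and was 0, so that alternative says little about measured miRNAs. Not all of the alternatives could move the medians: the blocks and the variance model left both as they were. Changes of filter or floor left the family's median as it was.

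miR-16, the brightest member and the one made from both Dleu2 and Smc4 loci, stood at 1.74, 1.84 and 1.59 in KO macrophages, against 1.75, 1.79 and 1.68 in controls. The values of the genotypes interleaved, and their means were 1.72 ± 0.12 (SD, n = 3) in KO and 1.74 ± 0.06 (SD, n = 3) in control macrophages. The difference was -0.02 (SE 0.15; limma adjusted p = 0.971), with a 95% interval of 0.774-fold to 1.26-fold for KO over control. With no scaling the difference was -0.47 (limma unadjusted p = 0.0303) and with scaling on all probes -0.19, and over all 20 alternatives the adjusted p ran from 0.183 to 0.996. It turned above 0 without KO replicate 3 (0.0465) and without control replicate 2 (0.0063). miR-16 varied less between replicates than most: its SD within groups, pooled over the genotypes, was 0.10, against a median of 0.23 over all tested miRNAs.

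miR-15a, which in human leukaemia is lost together with miR-16-1, stood at 1.04, 1.24 and 1.07 in KO macrophages, against 0.77, 1.38 and 1.18 in controls. Control replicate 1 was the lowest and control replicate 2 the highest of the 6 arrays, so the KO values fell inside the control range. The difference was 0.01 (SE 0.19; limma adjusted p = 0.978), with a 95% interval of 0.741-fold to 1.37-fold. Its sign turned with the scaling, being -0.16 when arrays were scaled on all probes and -0.44 when they were not scaled, and it was -0.16 without control replicate 1.

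miR-15b, which shares the Smc4 locus with the second copy of miR-16, stood at 1.09, 1.22 and 1.49 in KO macrophages, against 1.31, 1.20 and 1.09 in controls. KO replicate 3 was the highest of the 6 arrays and the other values overlapped. The difference was 0.07 (SE 0.17; limma adjusted p = 0.885), with a 95% interval of 0.801-fold to 1.37-fold. Without KO replicate 3 it was -0.04. For miR-16, miR-15a and miR-15b the intervals thus lay between 0.741-fold and 1.37-fold, under this scaling.

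**Figure D2:**
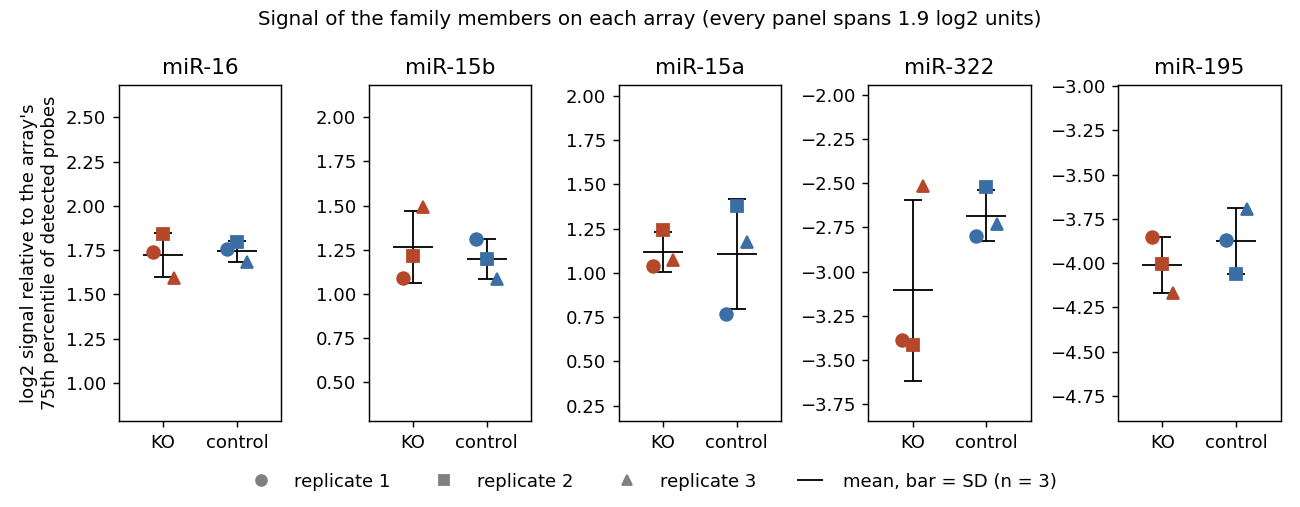
Log2 signal of the 5 detected members on each array, relative to the array's 75th percentile over detected probes (points; circles, squares and triangles are replicates 1, 2 and 3), with the mean and SD of each genotype (n = 3). For miR-322, KO replicates 1 and 2 lie below every control array and KO replicate 3 lies above; the other members' genotypes interleave.

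miR-322, whose human orthologue is called miR-424 and acts in monocyte differentiation, had the family's lowest fitted value and its widest spread. It stood at -3.39, -3.42 and -2.52 in KO macrophages, against -2.80, -2.52 and -2.73 in controls. KO replicates 1 and 2 were below every control array, while KO replicate 3, at -2.515, was above them all, the highest control being at -2.522. The means were -3.11 ± 0.51 (SD, n = 3) in KO and -2.68 ± 0.15 (SD, n = 3) in control macrophages. The difference was -0.42 (SE 0.26; limma adjusted p = 0.637), or 0.746-fold for KO over control with a 95% interval of 0.497-fold to 1.12-fold. It was the fifth lowest of the 135 fitted values and stood at -0.53 relative to the median miRNA. Without KO replicate 3, the KO array that lay above the controls, the difference was -0.72 (limma unadjusted p = 0.00481, adjusted p = 0.543). Without KO replicate 1 it was -0.28 (limma unadjusted p = 0.365) and without KO replicate 2 -0.27 (limma unadjusted p = 0.405). Over all 20 alternatives the adjusted p ran from 0.153 to 0.941. Slide column 1, with replicates 1 and 2, gave -0.74, and column 2, with replicate 3 of each genotype, gave 0.21. With no scaling it was -0.88, and with normexp background correction, which adds an offset of 50 units to every signal, 0.08.

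Before scaling, the deposited totals lay lower on every KO array than on every control array for 3 of 5 members, miR-15a, miR-16 and miR-322, as they did for 28.1% of all tested miRNAs, while 0% had KO above. miR-16 totals were 658.4, 574.3 and 604.1 units on KO arrays, against 842.7, 731.2 and 980.9 units on control arrays. miR-15a totals were 577.5, 533.5 and 595.9 units on KO arrays, against 596.9, 776.3 and 956.2 units on control arrays. For miR-15a, KO replicate 3 and control replicate 1 lay closer together than the software's errors of 42.3 and 42.5 units. After scaling the genotypes overlapped for miR-16, miR-15a and miR-322. The deposited total for miR-322 was 23.9, 18.9 and 43.9 on KO arrays, against 44.4, 46.1 and 55.2 on control arrays. The software's error on these miR-322 totals was between 2.34 and 4.61 units, which covers the reading of an array and not the spread between samples. Here too KO replicate 3 and control replicate 1 lay closer together than their errors of 3.85 and 4.05 units. The brighter miR-322 probe was printed as 10 spots per array, and after removal of outlier spots the coefficient of variation between spots was 2.31% to 11.5%. Spots of the same array share its RNA, and their agreement does not replace replicates.

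miR-195, which in mouse heart is known to hold back cardiomyocyte division, stood at -3.85, -4.01 and -4.17 in KO macrophages, against -3.87, -4.06 and -3.69 in controls. These values lay just above the floor of -4.32 that was set under dim signals, and the genotypes overlapped. The difference was -0.13 (SE 0.17; limma adjusted p = 0.748), with a 95% interval of 0.693-fold to 1.20-fold for KO over control. Of its 2 probes, 1 was well above background on all 6 arrays and the other on 0, so miR-195 rested on a single probe. With normexp the difference was 0.23. It was -0.55 with no scaling, -0.42 in the authors' series matrix values, -0.35 with quantile scaling and -0.30 when scaled on all probes, and over all 20 alternatives the adjusted p ran from 0.260 to 0.955.

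**Figure D3:**
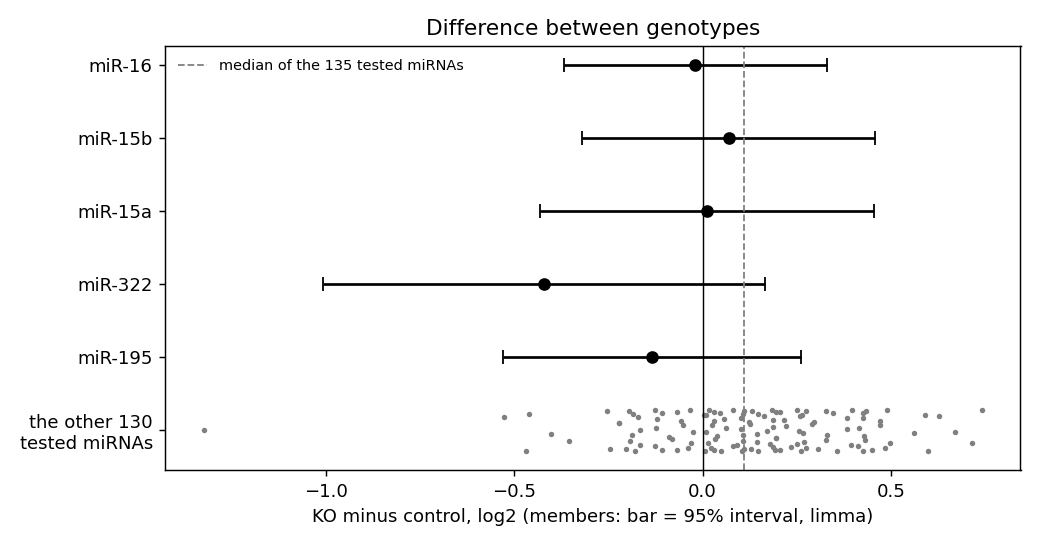
Fitted difference between KO and control macrophages (log2, KO minus control) for the 5 tested members with 95% intervals, above the other 130 tested miRNAs as grey points, with the median of all 135 as a dashed line at 0.11. Every member's interval includes 0, and miR-322 at -0.42 has the widest interval.

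Each of miR-16, miR-15a, miR-15b and miR-322 was read by 2 probes, both of them well above background on all arrays. The probes of a member gave close differences between genotypes. The difference for the brighter and the dimmer probe was -0.02 and -0.07 for miR-16, 0.01 and 0.02 for miR-15a, and 0.07 and 0.05 for miR-15b. For miR-322 it was -0.42 and -0.41. The dimmer miR-322 probe stood at -4.08, -3.99 and -3.18 in KO macrophages, against -3.51, -3.13 and -3.37 in controls. It too put KO replicates 1 and 2 below every control. KO replicate 3 lay below control replicate 2 by the dimmer probe, but above every control by the brighter probe. Both probes of a member were hybridised to the same RNA, so their agreement bears on the array reading and not on the mice.

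**Figure D4:**
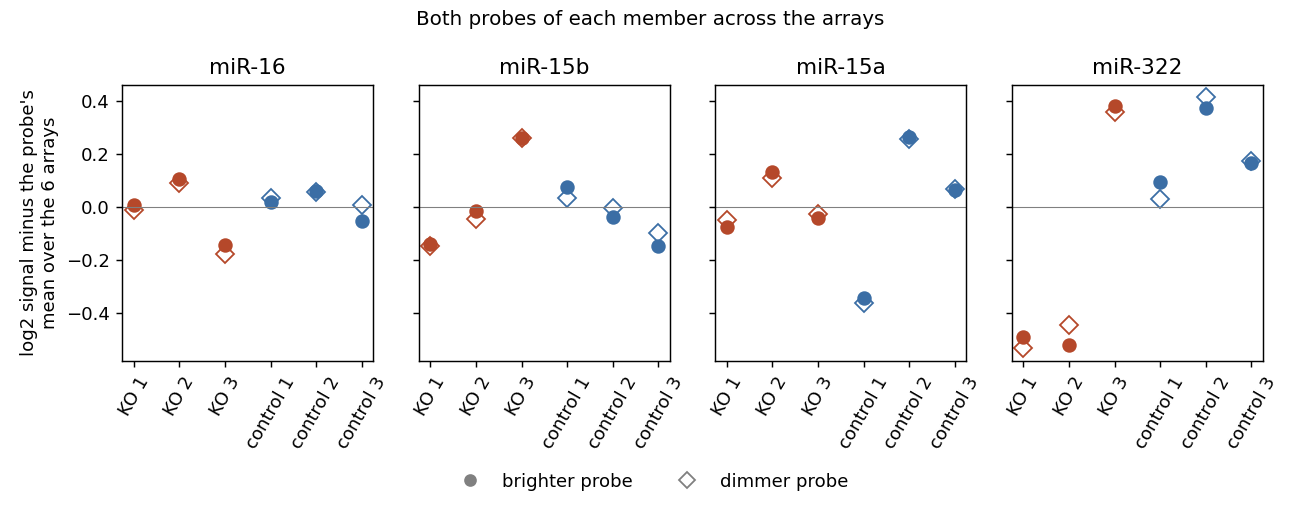
Log2 signal of each probe on each array, minus that probe's mean over the 6 arrays, for the members with 2 detected probes (filled circles, brighter probe; open diamonds, dimmer probe; KO arrays red, control arrays blue). The probes of a member lie close together on every array, and for miR-322 KO replicates 1 and 2 lie lowest.

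Ratios of members within an array do not depend on the scaling between arrays. They compare probes of different brightness, so only their change from array to array can be read. The ratio of miR-322 to miR-16 signal was 0.0286, 0.0262 and 0.0580 on the KO arrays, against 0.0425, 0.0502 and 0.0470 on the control arrays, the same order as for miR-322 alone in that KO replicates 1 and 2 were lowest and KO replicate 3 highest. The ratio of miR-15a to miR-15b was 0.963, 1.02 and 0.748 on the KO arrays, against 0.687, 1.13 and 1.06 on the control arrays. KO replicate 3 and control replicate 1 thus had the lowest proportion of miR-15a to miR-15b, and that proportion did not follow genotype. The miR-16 signal cannot be split between the Dleu2 and Smc4 clusters, so ratios to miR-16 are not specific to either. The ratio of miR-15a to miR-16 was 0.614, 0.662 and 0.697 in KO, against 0.504, 0.748 and 0.704 in control macrophages. The ratio of miR-15b to miR-16 was 0.638, 0.649 and 0.932 in KO, against 0.734, 0.660 and 0.662 in control macrophages. KO replicate 3 had the highest ratio of miR-15b to miR-16, while the other arrays lay between 0.638 and 0.734. Of the 6 arrays it held the highest miR-15b and miR-322 and the lowest miR-16 and miR-195.

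The passenger strands, the arms of the hairpins that are usually degraded, were near background. Of miR-15a*, miR-15b*, miR-16* and miR-322*, the 4 on the array, 0 were detected on any array, and their totals ran from -2.63 to 2.01 units with software errors of 1.34 to 1.72. The rest of the X-linked cluster around miR-322 gave the same picture. Of 9 miRNAs there (miR-503, miR-503*, miR-351 and the arms of miR-542, miR-450a and miR-450b), 0 were detected on any array, with totals of -3.33 to 1.59 units. miR-322 was therefore the only detected product among the entries of its cluster that were examined.

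The wider seed group shares the bases AGCAGC without the whole family seed, which the next sequences show with those bases in capitals.
miR-503: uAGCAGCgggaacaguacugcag
miR-103: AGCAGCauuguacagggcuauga
miR-107: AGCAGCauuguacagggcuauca

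In miR-503 the 6 bases start at position 2, as in the family, and in miR-103 and miR-107, which lie in genes for pantothenate kinases, at position 1. miR-503 was not detected, whereas miR-103 and miR-107 were detected on all 6 arrays. miR-107 stood at -0.10, -0.08 and -0.31 in KO macrophages, against -0.13, -0.29 and -0.50 in controls, with a difference of 0.14 (SE 0.17; limma adjusted p = 0.748). miR-103, which differs from it near the 3′ end, had a difference of 0.19 (SE 0.16; limma adjusted p = 0.668). For both the genotypes overlapped.

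The miRNAs whose pattern over the 6 arrays was most like the family's were named by Pearson's r with the mean of its 5 detected members, among 105 others detected on all arrays. The family mean was -0.67, -0.62 and -0.51 on the KO arrays, against -0.57, -0.44 and -0.50 on the control arrays, and the genotypes overlapped. The most alike were miR-125b-5p (r = 0.854), miR-19b (r = 0.766), miR-106b (r = 0.709), miR-301a (r = 0.683) and miR-148b (r = 0.658). The mean gave each member equal weight, although miR-322, with the widest spread, held only 1.23% to 2.38% of the family signal. miR-19b (r = 0.870) and miR-301a (r = 0.779) were also the most like miR-322 alone. These are descriptions over 6 arrays, whose values share each array's scaling.

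**Figure D5:**
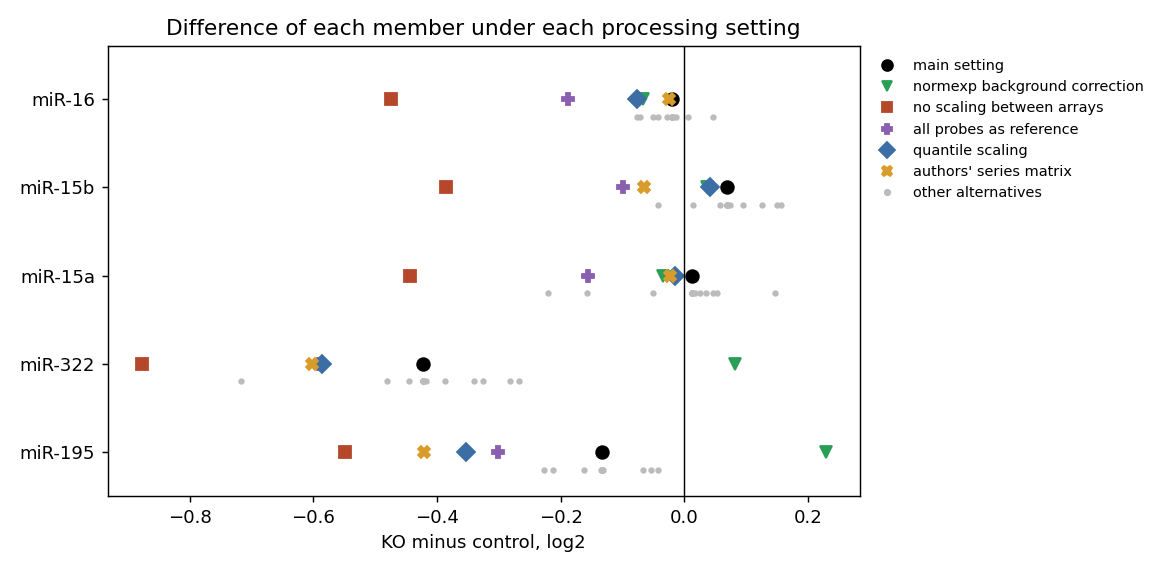
Difference between KO and control macrophages (log2, KO minus control) of each tested member under the main setting (black circle) and the 20 alternatives (coloured symbols for scalings and the authors' values, grey dots for the others). With no scaling all 5 members lie lower, from -0.88 to -0.39, and with normexp background correction miR-322 and miR-195 lie above 0.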

How the data were processed

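Each of 6 RNA samples (0.5 µg total RNA, Cy3 label) was run on an Agilent mouse miRNA array, per the labels' protocols. The scanner software had subtracted background from each spot intensity and removed spatial trends within the array, as the headers of the deposited files record. They give its version as Feature Extraction 10.5.1.1, and version 9.1 stands in the submitters' processing notes. The deposited gene-level intensity tables hold the total signal of each miRNA, without scaling between arrays and with some negative values. The authors' deposited series matrix holds log2 values. Over miRNAs with totals above 5 units they correlated with log2 totals of the same array at 0.9991 to 0.9995. Their column medians, for KO replicates 1 to 3 and then control replicates 1 to 3, were 0.0288, 0.0236, 0.0148, 0.0010, 0.0256 and 0, and the highest value was 14.74 in every column. Their scaling is not given in the sources used.

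For each of 1759 mouse probes the median intensity over spots without outlier flags was scaled by the 75th percentile, on that array, of 200 probes that were well above background (at least 50% of their spots) on every array. Lower values were set to the 5th percentile of the detected signals (-4.32 on the log2 scale). A miRNA took its brightest probe and was tested when detected on at least 3 arrays. Genotypes were grouped by sample title and compared by limma 3.58.1 (lmFit, then eBayes; R 4.3.3), with Benjamini-Hochberg adjustment over 135 miRNAs at 0.05. Shares used gene-level totals, with negative totals set to 0, and got no test. Precision is limited by having 3 arrays per genotype. The fit was tested on simulated data. All arrays lay on 1 slide, and no row of it held both genotypes, so row and genotype cannot be told apart.

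The members and lists were chosen with earlier results of these data known. All members, their passenger strands, the cluster of miR-322, the wider seed group and the 5 miRNAs most like the family were named by rule. Alternatives covered background correction, scaling, filter, floor, probes, deposited values, blocks, the variance model and leaving out arrays. normexp used the median spot signal.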

Additional observations from a re-analysis of the deposited data

How the results depend on the processing

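Under the 20 alternatives, limma called 0 of the tested miRNAs and 0 family members, with an adjusted p for members of 0.153 or more. With no scaling between arrays, 2 of 5 members had an unadjusted p under 0.05, and without KO replicate 3, 1 of 5. The family's median difference of -0.02 was -0.47 with no scaling and ran from -0.13 to 0.01 when each array was left out in turn. The family's share differed by -0.31 percentage points in the series matrix values, against -0.13 in the totals, and by -0.20 to 0.0039 points with each array left out; the cause was not tested.

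The sign of single members turned as follows. miR-15a was -0.0348 with normexp, -0.16 when scaled on all probes, -0.44 with no scaling, -0.0154 with quantile scaling, -0.0226 in the series matrix and -0.22 without control replicate 1 and KO replicate 2 together, an alternative that was chosen after the data had been seen. miR-15b was -0.10 when scaled on all probes, -0.39 with no scaling and -0.0651 in the series matrix. With normexp, miR-195 was 0.23 and miR-322 0.0812. Leaving out each array in turn gave -0.16 to 0.15 for miR-15a, -0.0433 to 0.16 for miR-15b, -0.0767 to 0.0465 for miR-16, -0.23 to -0.04 for miR-195 and -0.72 to -0.27 for miR-322. The causes were not tested.

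The labels do not say what a replicate number marks. Same-numbered arrays lay side by side in a slide column, and their deviations from the group means correlated at 0.174, -0.07 and 0.373, and KO replicate 2 correlated best with control replicate 1. With the replicate block 0 miRNAs and 0 members were called, 13 miRNAs had an unadjusted p under 0.05, and miR-322 had an adjusted p of 0.515. With the slide column as a block its adjusted p was 0.588. Signal over background limits miR-195, miR-497 and miR-322.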

Other observations

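Single members resembled different miRNAs over the 6 arrays, a comparison chosen after their values were seen. Among 109 other miRNAs detected on all arrays, miR-16 was most like miR-24 (r = 0.980) and miR-15a most like miR-27a (r = 0.972), miRNAs of the miR-23/27/24 clusters. miR-24 stood at 2.89, 3.13 and 2.54 in KO macrophages, against 2.86, 3.06 and 2.80 in controls, with KO replicate 3 lowest, as for miR-16. miR-27a stood at 1.48, 1.93 and 1.56 in KO macrophages, against 0.99, 2.30 and 1.58 in controls, with control replicate 1 lowest and control replicate 2 highest, as for miR-15a. miR-15b was most like miR-340-3p (r = 0.893) and miR-322 most like miR-19b (r = 0.870). miR-195 had no such neighbour above r = 0.706, reached by miR-30b. These are descriptions over 6 arrays with the highest of many values picked.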
